A study of Mus musculus with 2 samples.

Results

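MiRNAs that are best known from brain, sense organs, liver and pancreas were followed in embryonic mouse heart. They were chosen by name, as every precursor entry whose mature miRNA is called miR-9, miR-124, miR-128, miR-135b, miR-183, miR-96, miR-182, miR-184, miR-122 or miR-375. An entry is a hairpin of a known miRNA at a given genomic position, with the reads that miRDeep2 assigned to it. These 10 names held 16 of the 568 entries listed for replicate 1 and 13 of the 523 listed for replicate 2, or 16 of the 620 listed for either. Both samples were hearts of wild type C57BL/6 embryos at E9.5, so there was a single group and no treated or mutant group to compare with it. Small RNA of these hearts was sequenced as single-end reads of 50 nt. The tables held 4942257 mature reads for replicate 1 and 4806179 for replicate 2. How many hearts were pooled, and whether the replicates came from separate litters, is not given in the sources used here.

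MiRNAs are cut from hairpin transcripts first by the Microprocessor, which contains DGCR8, and then by Dicer. The arm of the hairpin that is kept in an Argonaute protein is the mature miRNA and the opposite one is called the star. Pairing with target mRNAs runs mainly through the seed, nucleotides 2 to 8 of the mature sequence. MiR-9 and miR-124 are abundant in neural progenitors and neurons, and miR-128 is enriched in brain. MiR-183, miR-96 and miR-182 come from a single cluster that is strongly expressed in photoreceptors and hair cells, miR-184 is abundant in lens and cornea, miR-122 dominates the miRNAs of hepatocytes, and miR-375 is best known from pancreatic islets.

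The mature sequences of the members found in RefSeq (GRCm38.p6) are shown because the results turn on which entries can be told apart by their reads. Capitals mark the seed.
miR-9-5p: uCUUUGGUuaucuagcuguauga
miR-128-3p: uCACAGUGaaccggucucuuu
miR-183-5p: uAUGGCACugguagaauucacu
miR-96-5p: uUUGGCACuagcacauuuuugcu
miR-182-5p: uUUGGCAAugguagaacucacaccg
miR-184-3p: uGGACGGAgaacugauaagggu
No 2 of these share a whole seed. Those of miR-183-5p and miR-96-5p were identical at 6 of 7 positions, those of miR-96-5p and miR-182-5p at 6 of 7, and those of miR-183-5p and miR-182-5p at 5 of 7. Beyond the seed, miR-183-5p and miR-182-5p shared the run UGGUAGAA at nucleotides 9 to 16 of both. Among all 620 entries, the seed of a member recurred in another miRNA only for miR-135b, whose seed is that of miR-135a. Without miR-124, whose listed 5p arm did not begin with U, the 9 mature sequences of the members all began with U. Of 502 distinct mature sequences in the tables, those with few reads included, 244 did (48.6%). The 9 sequences of the members were 20 to 24 nt long in the deposited consensus. That consensus was 1 base shorter at the 3′ end than the RefSeq sequence for miR-128-3p, miR-183-5p, miR-96-5p and miR-182-5p in both replicates and for miR-184-3p in replicate 2 only.

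The star arms of miR-9 and miR-128 are shown for the same reason, with nucleotides 2 to 8 in capitals.
miR-9-3p: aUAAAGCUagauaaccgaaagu
miR-128-1-5p: cGGGGCCGuagcacugucuga
miR-128-2-5p: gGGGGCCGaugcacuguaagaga
The star arms of the miR-128 precursors share nucleotides 2 to 8, but only 16 of the 21 positions compared were identical, so star reads differ between the loci where mature reads do not.

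Hearts at E9.5 held reads of 9 of the 10 names in both replicates, at levels that spanned more than 2 orders of magnitude. Summed over all their entries, the members took 0.442% ± 0.005 of the mature reads (SD, n = 2). This small SD hides opposite differences, since miR-184 was lower in replicate 2 while miR-128 and miR-122 were higher. Without miR-184, an alternative added after seeing the data, the sum was 0.399% ± 0.041. Of the 5 heart muscle miRNAs, miR-1a and miR-133a lay far above every member. MiR-1a, the main miRNA of striated muscle, took 10.2% ± 0.362 at its higher entry, and miR-133a, encoded beside it, took 1.21% ± 0.029. Each has 2 entries with nearly the same reads. Summed over these, as for the members, miR-1a took 20.5% ± 0.724 and miR-133a took 2.42% ± 0.059. The other 3, which lie in introns of myosin genes, fell among the members or just above them. MiR-499 had 8262 and 7061 reads, miR-208b had 1877 and 1581, fewer than miR-128, miR-122 and miR-182 in both replicates, and miR-208a had 860 in replicate 1 and was not listed in replicate 2. The higher miR-1a entry had 83.2 and 72.0 times the reads of miR-128, the highest member, in the replicates. In whole hearts, a small number of cells with much of a miRNA and many cells with little of it cannot be told apart.

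**Figure D1:**
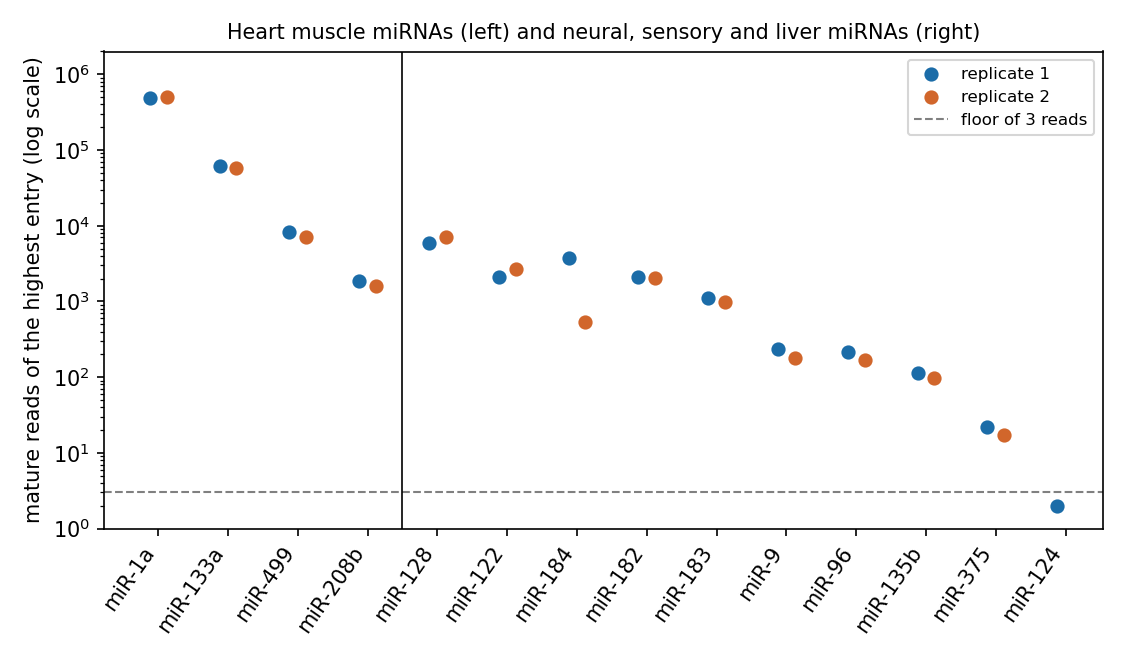
Mature reads of the highest entry of each miRNA (vertical axis, log scale) in replicate 1 and replicate 2, with heart muscle miRNAs left of the vertical line and the neural, sensory and liver miRNAs right of it, and a dashed line at 3 reads. The members run from 7003 reads of miR-128 in replicate 2 down to 2 reads of miR-124 in replicate 1. MiR-184 is the one whose points lie far apart.

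Ordered by the highest entry of each name, miR-128 came first, followed by miR-122, miR-184, miR-182, miR-183, miR-9, miR-96, miR-135b and miR-375. The ranges of the replicates overlapped between miR-122 and miR-184, between miR-184 and miR-182, and between miR-9 and miR-96, so the order of those neighbours was not resolved. The other neighbours in this order did not overlap. Names further apart could also change places. MiR-184 had fewer reads than miR-183 in replicate 2 (530 against 995). MiR-122 had fewer than miR-182 in replicate 1 (2083 against 2100). The order within these pairs was not resolved either. MiR-128 had 2.84 and 2.63 times the reads of miR-122, miR-182 had 1.91 and 2.04 times those of miR-183, and miR-135b had 5.14 and 5.76 times those of miR-375.

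MiR-128-3p was the most abundant neural miRNA of the list. Its entry at miR-128-1 had 5921 mature reads in replicate 1 and 7003 in replicate 2 (0.133% ± 0.018, n = 2), which put it at rank 80 of the 471 entries listed in both replicates. Its entry at miR-128-2 had 5785 and 6855 reads (0.130% ± 0.018, rank 82). The loci yield the same mature sequence, and the entries differed by only 136 and 148 mature reads, 2.30% and 2.11% of the miR-128-1 count. The precursor of miR-128-1 lies at chr1:130098946-130099000 (mm9, plus strand) in an intron of R3hdm1, and that of miR-128-2 at chr9:112021149-112021201 (minus strand) in an intron of Arpp21. Star reads, which carry the sequence of their own locus, were far from equal. The miR-128-1 star had 93 and 111 reads, and the miR-128-2 star had 5 and 2. Of the star reads of both loci, miR-128-1 thus gave 94.9% in replicate 1 (95% Wilson interval 88.6 to 97.8) and 98.2% in replicate 2 (93.8 to 99.5). These intervals, like all others given here, cover counting error only. What part of the mature reads came from each locus was not measured by these counts. The nearest entries in rank were miR-133b-3p (6734 and 6504 reads) above miR-128-1 and miR-542-3p (7012 and 5720 reads) below it.

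MiR-27b-3p, chosen after its values were seen, holds the first 8 bases of miR-128-3p 1 position further along, since UCACAGUG stands at nucleotides 1 to 8 of miR-128-3p and at nucleotides 2 to 9 of miR-27b-3p.
miR-27b-3p: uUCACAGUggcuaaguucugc
MiR-27b-3p had 36361 and 30701 reads, 6.14 and 4.38 times those of the miR-128-1 entry. Its relative miR-27a-3p lay below miR-128, with 3482 reads in replicate 1 and 3222 in replicate 2, where miRDeep2 took the opposite arm as the mature one.

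MiR-9-5p stood far lower. It had 237 mature reads in replicate 1 and 178 in replicate 2 at each of 4 entries (0.00425% ± 0.00077 per entry, n = 2, rank 273). Identical counts at all 4 mean that the mature reads do not tell the loci apart. The sum over these entries, 948 and 712 reads, therefore counts the same mature sequence 4 times. The first is miR-9-1, at chr3:88019535-88019592 in an intron of the lincRNA Gm3764. The next pair was listed for miR-9-2, at chr13:83878426-83878481 and at chr13:83878377-83878448, overlapping each other at an exon of the lincRNA C130071C03Rik. The last is miR-9-3, at chr7:86650165-86650222 in an intron of the lincRNA AI854517. All 4 are on the plus strand of mm9. At 3 of the entries the star arm, miR-9-3p, had 10 reads in each replicate, which made 4.05% and 5.32% of mature and star reads together. The second entry at miR-9-2, whose hairpin extends upstream of miR-9-5p and does not hold miR-9-3p, had 0 star reads in both. The miR-128-1 entry had 25.0 and 39.3 times the reads of a miR-9-5p entry.

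MiR-124, the most abundant miRNA of adult neurons, was at the edge of what these libraries could register. In replicate 1 each of its 3 loci was listed with 2 reads on the 5p arm and 1 read on the 3p arm, the arm that is abundant in brain. As with miR-9-5p, the counts were identical at all 3, so these reads do not tell the loci apart. In replicate 2 no entry was listed. The value of 2 reads lies below the floor of 3 reads, a share of 6.07e-05% in replicate 1 and 6.24e-05% in replicate 2, so no difference between the replicates was detectable at this depth. The loci are at chr2:180628750-180628809, chr3:17695686-17695744 and, in an exon of the lincRNA A930011O12Rik, chr14:65209507-65209567.

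MiR-135b-5p, from an intron of Lemd1 (chr1:134094680-134094741, plus strand), had 113 and 98 mature reads (0.00216% ± 0.00017, n = 2, rank 307) and 3 and 7 star reads. MiR-135a-5p, which has the same seed, had 9 reads in each replicate at each of its 3 entries. MiR-135b-5p thus exceeded a miR-135a-5p entry by 12.6 and 10.9 times.

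Reads of other neural miRNAs spanned a wide range. Of 12 further names on this list, 8 were listed in at least 1 replicate and 7 in both. MiR-129-5p was the highest, with 1712 and 1647 reads, followed by miR-488 (184 and 150), miR-138 (107 and 111), miR-219a (88 and 106), miR-212 (72 and 83) and miR-346 (21 and 27). MiR-219b had 1 read in replicate 1 only, and miR-137, miR-132, miR-153 and miR-873a were not listed. An entry that is not listed was not reported by miRDeep2, which is not the same as 0 reads.

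The sensory cluster was read at all 3 of its hairpins, which lie on the minus strand of chromosome 6, between genes, with Nrf1 the nearest. MiR-182-5p (chr6:30115922-30115986) had 2100 and 2031 reads, a share of 0.0424% ± 0.00016 (n = 2, rank 147). MiR-183-5p (chr6:30119673-30119732) had 1100 and 995 reads (0.0215% ± 0.0011, rank 189). MiR-96-5p (chr6:30119465-30119528) had 213 and 167 reads (0.00389% ± 0.00059, rank 280). The same order held in both replicates. MiR-182-5p took 61.5% of the cluster's mature reads in replicate 1 (59.9 to 63.1) and 63.6% in replicate 2 (61.9 to 65.3), miR-183-5p took 32.2% (30.7 to 33.8) and 31.2% (29.6 to 32.8), and miR-96-5p took 6.24% (5.48 to 7.10) and 5.23% (4.51 to 6.06). The intervals of the replicates overlapped for each of the 3. MiR-183-5p and miR-96-5p, whose hairpins are 144 bases apart, differed by 5.16 and 5.96 times, whereas miR-183-5p and miR-182-5p, which lie at the ends of the cluster, were within 2.04 times of each other.

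**Figure D2:**
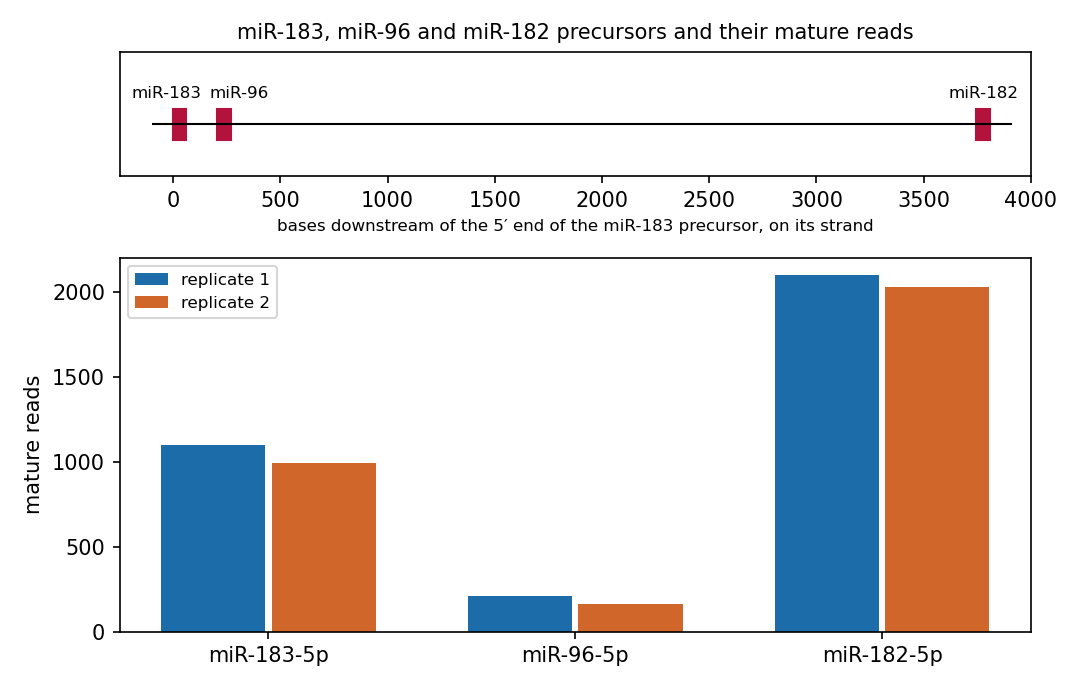
Top, the hairpins of miR-183, miR-96 and miR-182 drawn to scale by distance in bases from the 5′ end of the miR-183 precursor. Bottom, bars of mature reads of each miRNA in replicate 1 and replicate 2, from 167 reads of miR-96-5p to 2100 of miR-182-5p, with the same order in both replicates.

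MiR-184-3p, from an intergenic hairpin on the minus strand (chr9:89697101-89697161), was the member whose replicates lay far apart. Replicate 1 had 3742 reads and replicate 2 had 530. As shares these are 0.0757% and 0.0110%, a 6.87-fold higher level in replicate 1. Its mean share of 0.0434% ± 0.0457 (n = 2) therefore has an SD as large as the mean, and its rank of 146 describes neither sample. On the log2 scale the ratio of replicate 2 to replicate 1 was -2.78. Among the 431 entries listed in both replicates with at least 20 mature reads in sum, the median absolute log2 ratio was 0.19, 15 exceeded 1, and only that of miR-1931 (15 and 215 reads) exceeded that of miR-184-3p. Among the 225 entries with at least 1000 reads in sum, 3 exceeded 1 in absolute log2 ratio, miR-184-3p and a pair of miR-1934 entries (358 and 707 reads at each, log2 ratio 1.02). Star reads of miR-184 were 0 in both replicates.

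**Figure D3:**
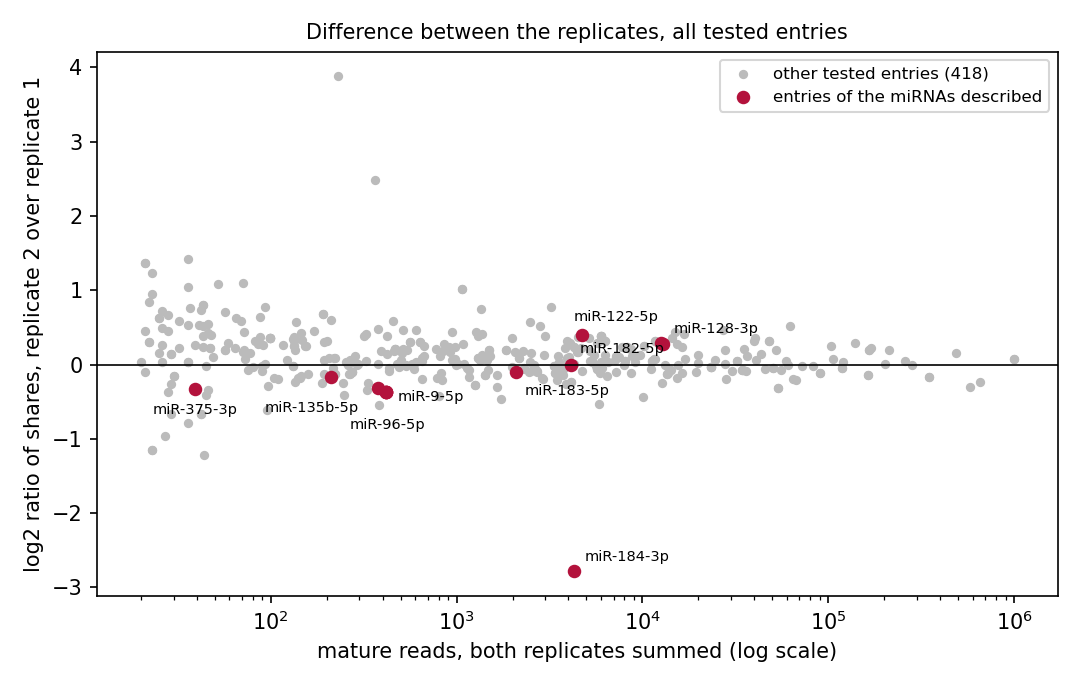
Log2 ratio of the shares of replicate 2 over replicate 1 (vertical axis) against the mature reads of both replicates summed (horizontal axis, log scale), 1 point per tested entry, with the members in red. MiR-184-3p lies at -2.78, while the other members lie between -0.37 and 0.40.

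MiRNAs of eye, epithelium and blood are given beside miR-184-3p, and their part in its difference was not tested. MiR-204, abundant in retinal pigment epithelium and lens, had 438 and 479 reads, and its relative miR-211 had 20 reads in replicate 1 and was not listed in replicate 2. Among the epithelial miRNAs, a list chosen after the values were seen, miR-205 had 392 and 460 reads, miR-200b 556 and 543, miR-200c 483 and 493, miR-200a 271 and 262, miR-203 138 and 145, and miR-429 34 and 37. MiR-141 had 8 reads in replicate 1 and was not listed in replicate 2. The log2 ratios of the 6 epithelial entries listed in both replicates lay between -0.01 and 0.27. In the blood list, miR-486a had 5456 and 6534 reads at its higher entry, miR-451a 128 and 127, and miR-142a 227 and 207, and miR-144 was listed in replicate 2 only, with 73 reads.

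MiR-122-5p, the hepatocyte miRNA, had 2083 reads in replicate 1 and 2664 in replicate 2 (0.0488% ± 0.0094, n = 2), which put it at rank 137, between miR-669c-5p and miR-329-5p. It had more reads than miR-208b, a heart muscle miRNA, in both replicates, while miR-499 had 3.97 and 2.65 times its reads. Its hairpin is at chr18:65408520-65408577 on the plus strand, 16606 bases from Alpk2, the nearest gene. It had 0 star reads in both replicates.

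MiR-375-3p (chr1:74947235-74947291, minus strand, 1354 bases from Ccdc108) had 22 and 17 reads (0.000399% ± 0.000065, rank 392) and no star reads. It was the lowest member listed in both replicates. Of 6 further miRNAs of liver, gut and pancreas, 4 were listed in both replicates. MiR-192, abundant in liver and gut, had 1979 and 1739 reads, and miR-194, transcribed with it, had 717 and 731 at its highest entry. MiR-217 and miR-216b, known from pancreas, had 8 and 11 and 5 and 3 reads, and miR-216a and miR-802 were not listed.

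How far the replicates differed at each of the 431 entries was judged with an exact binomial test, adjusted after Benjamini and Hochberg over all of them. It compares these libraries and covers read-counting error only. Of these, 177 were called at an adjusted p of 0.05, 41.1% of all tested, with 27.6% higher in replicate 2 and 13.5% higher in replicate 1. Of the 13 member entries tested, 8 were called, 3 of them higher in replicate 2 and 5 higher in replicate 1. The 4 identical miR-9 entries and the pair of miR-128 entries make up 6 of those 8, so the calls concern 4 distinct mature miRNAs. With each mature sequence counted once, 4 of 9 members were called, against 138 of 352 sequences.

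Higher in replicate 2 were miR-128-1-3p (log2 ratio 0.28, adjusted p = 1.15e-27 in the exact test), miR-128-2-3p (0.29, 1.38e-27) and miR-122-5p (0.40, 4.32e-20). Higher in replicate 1 were miR-184-3p, whose p was too small for the computer to hold, and the miR-9-5p entries (-0.37, exact adjusted p = 0.0238). The members not called were miR-182-5p (-0.01, exact adjusted p = 0.92), miR-183-5p (-0.10, 0.192), miR-96-5p (-0.31, 0.0889), miR-135b-5p (-0.17, 0.552) and miR-375-3p (-0.33, 0.658). The median log2 ratio of the 13 member entries, in which miR-9 stands 4 times, was -0.31 and that of all tested entries was 0.07. With each mature sequence counted once, the medians were -0.16 over 9 members and 0.09 over all 352. With the replicates scaled by TMM or by DESeq2 size factors in place of the total of mature reads, miR-183-5p and miR-96-5p were also called higher in replicate 1, which made 10 of 13 member entries. The calls over all entries then split into 86 higher in replicate 2 and 92 higher in replicate 1 under TMM, and 78 and 98 under DESeq2, in place of 119 and 58.

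EdgeR's exact test was also run with a common dispersion of 0.0232, a coefficient of variation of 15.2%. Each side of this test is a single library and the dispersion comes from the difference between the same libraries, so it only sets an entry against the typical spread of all entries. It called 3 of the 431 entries, or 0.696%. These were miR-184-3p, miR-1931 and miR-3963, and no other member entry.

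In the binomial test, where 41.1% of all entries were called (27.6% higher in replicate 2 and 13.5% higher in replicate 1), counts of the heart muscle list were 2 higher in replicate 2 and 4 higher in replicate 1 of 6 tested, those of the other neural list 0 and 0 of 7, those of the eye list 0 and 0 of 1, and those of the liver, gut and pancreas list 0 and 1 of 4. MiR-126a of endothelium was not called, smooth muscle had 0 and 1 of 2, blood had 2 and 0 of 4, and the epithelial list had 1 and 0 of 6. In the heart muscle list miR-1a and miR-133a each stand with 2 entries, and both blood calls were entries of miR-486a. With so few entries a list, these counts set no list apart from the whole. Endothelial miR-126a was high in both replicates (143108 and 138053 reads), whereas miR-223 of myeloid cells was not listed.

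Star reads of the members ranged from 0 to 111 and did not follow the order of the mature reads. In the 187 entries that reached 1000 mature reads in each replicate, the median star share of mature and star reads was 0.711% in replicate 1 and 0.710% in replicate 2, and 34 entries, or 18.2%, had 0 star reads in both. The miR-128-1 entry, with 1.55% and 1.56%, lay above these medians, and the miR-128-2 entry, with 0.0864% and 0.0292%, lay below them. Both values divide by mature reads that the loci cannot be told apart by, so the star share of each locus was not measured. MiR-183 had a single star read in each replicate, and miR-182 had 0 and 3. At lower read counts, the entries of miR-9 that had star reads, and miR-135b with 2.59% and 6.67%, had the highest star shares of the members listed in both replicates. MiR-122, miR-184, miR-96 and miR-375 had 0 star reads in both replicates.

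**Figure D4:**
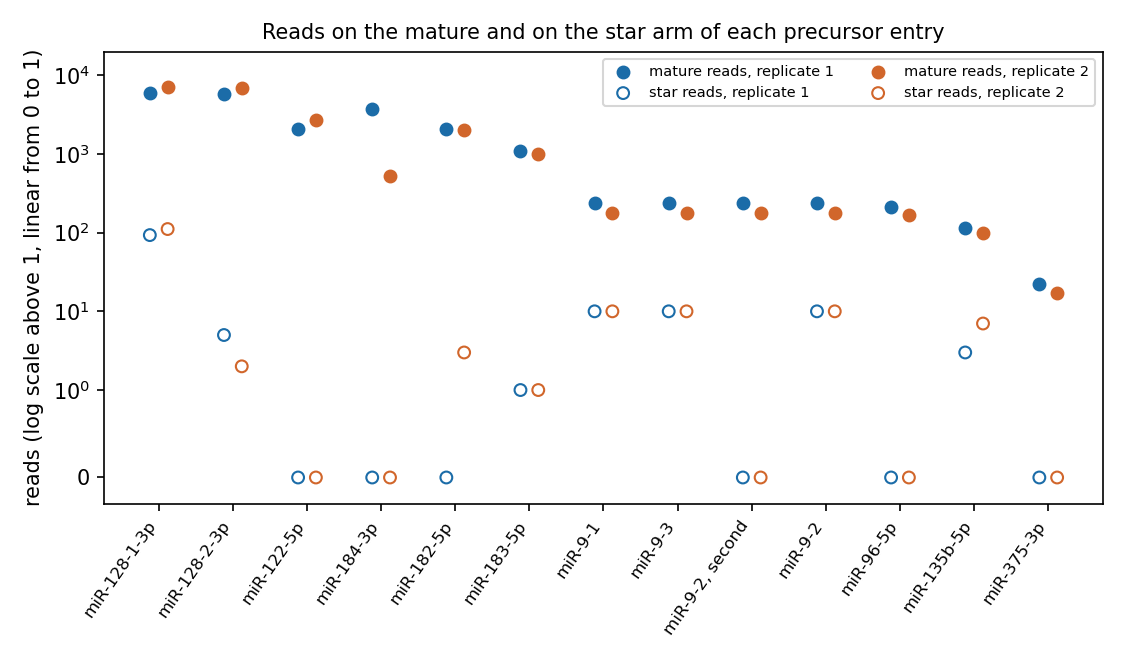
Mature reads (filled points) and star reads (open points) of the 13 member entries listed in both replicates, on an axis that is logarithmic above 1 and linear from 0 to 1. The miR-128-1 and miR-128-2 entries have nearly the same mature reads while their star reads are 93 and 111 against 5 and 2.

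The miRDeep2 score, which rates how well the reads on a hairpin fit Dicer processing, was low wherever a member had no star reads, also at high mature counts. No entry without star reads scored above 3 (235 entries in replicate 1 and 202 in replicate 2), while entries with star reads had median scores of 210 and 190. MiR-122 scored 2.4 in both replicates and miR-184 scored 1.7 in both, with 2083 and 2664 mature reads for miR-122 and 3742 and 530 for miR-184. MiR-182 scored 2.1 in replicate 1, with 0 star reads, and 1000 in replicate 2, with 3. The miR-9-2 entry with star reads scored 120 and 97, and the overlapping one without them scored 0.9 and -2.8. MiR-135b, which had star reads, still scored only 2.5 and 2.6.

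**Figure D5:**
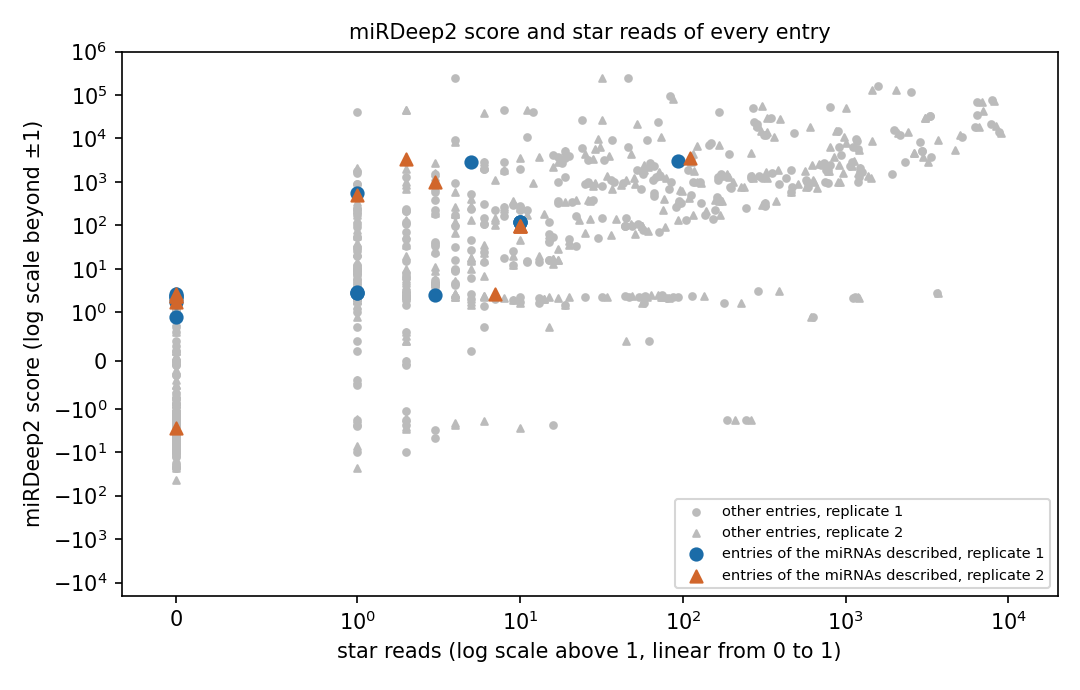
MiRDeep2 score (vertical axis, log scale beyond 1 and -1) against star reads (horizontal axis, log scale above 1) of every entry in replicate 1 (circles) and replicate 2 (triangles), with the members coloured. Entries with 0 star reads stay at or below a score of 3, and the miR-128 entries reach 2900 to 3600.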

How the data were processed

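Total RNA of E9.5 WT hearts was extracted with TRIZOL, libraries were made with the TruSeq small RNA kit and sequenced on HiSeq 2500, and the authors ran miRDeep2 on the clean reads of each replicate with mm9 as the genome. The authors deposited raw counts of mature, loop and star reads for each precursor of a known miRNA, and a miRDeep2 score. Adapter trimming, length filters and the versions of miRDeep2 and miRBase are not given in the sources used here. Each interval comes from the reads of a single library, so intervals cover counting error only. No unique molecular identifiers are mentioned, so the counts are of reads and not of molecules.

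An entry's share is its mature reads as a percent of the replicate's total, with mean and SD over 2 replicates. That total is the sum over all entries, so a mature sequence listed at several entries is counted at each. An entry of one replicate was matched to one of the other if each covered at least 50% of the other's hairpin on the same strand. Positions count from 1 and all 1091 listed precursors were identical to NCBIM37 (mm9), with genes from GENCODE vM1. Since there is 1 group, no conditions could be compared, and the p-values measure only the difference between these samples. The replicates were compared by the exact two-sided binomial test against the ratio of their totals, over entries with at least 20 mature reads in sum, with Benjamini-Hochberg adjustment. Alternatives used edgeR 4.0.16 and DESeq2 1.42.0 under R 4.3.3. Python 3.11.15 with scipy 1.17.1, pandas 2.3.3, numpy 2.4.6 and matplotlib 3.10.9 gave the rest. Simulated counts with known changes were used to check the binomial test. They were drawn with read-counting error only, so the check does not cover any further spread between libraries.

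The entries named are those of the 10 names, those with the same seed, those of lists of other neural, eye, liver, gut and pancreas miRNAs and of cell type markers, and the nearest neighbours in rank. The members and lists were chosen with earlier results of these data known, and the epithelial list and miR-27 after the values were seen.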

Additional observations from a re-analysis of the deposited data

How the results depend on the processing

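The summed share of the members, 0.442% ± 0.005, became 0.410% ± 0.027 when each mature sequence was counted once. It was 0.434% ± 0.005 when all reads of the precursor were counted. In alternatives added after seeing the data, it was 0.399% ± 0.041 without miR-184 and 0.438% ± 0.004 without the second miR-9-2 entry. It was 0.438% to 0.446% with either replicate left out. Counted once, the share of miR-9 was 0.342 of its value and that of miR-128 0.692, by the construction of that alternative. The share of each member with a single entry listed in both replicates was 1.37 times its value. The total there no longer counts repeated sequences. The number of entries that differed between the replicates, 177, was 176 to 178 under TMM, DESeq2 size factors and the other read minimums, 138 with each sequence counted once, 175 without 5 entries for which miRDeep2 took opposite arms as mature, none of them a member (added after seeing the data), and 3 in edgeR's exact test with a common dispersion, which sets 1 library against 1. In that test 7 member entries called in the binomial test were no longer called, and that of miR-184-3p was. The ranges rest on 2 libraries of a single group, and entries listed in only 1 replicate, such as those of miR-124, could not be tested. No paired analysis was possible because there is only 1 group of samples.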
